A study of Mus musculus with 192 samples.

Results

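Accessible chromatin was described at 9 mouse genes that build and serve 1 regulatory circuit: Keap1, the activator genes Nfe2l1 and Nfe2l2, the repressor genes Bach1 and Bach2, the small MAF genes Mafk, Maff and Mafg, and the target gene Hmox1. The genes were chosen by name as a pathway, and by the number of accessible windows at Bach2, which was known to be high. A member window was any deposited 500 bp window that overlapped the gene body or the 50 kb on either side. By that rule 111 of 50000 windows belonged to the 9 genes, out of 22350 protein-coding genes, and 33 of them (29.7%) lay at Bach2. Since window number entered the choice, the counts are descriptions and no test was made on them.

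The windows came from Pi-ATAC, a single-cell assay in which fixed cells are transposed in bulk, stained for a protein and sorted into wells. Cells of the 4T1 mouse breast cancer line were mixed with splenocytes from the spleen of an MMTV-PyMT mouse, a strain in which the MMTV promoter drives the polyoma middle T oncogene in mammary epithelium, and this mouse carried no tumour. Sample titles gave 96 4T1 cells sorted on EpCAM and 96 splenocytes sorted on CD45, and the source name of 1 sample in the 4T1 group names splenocytes instead. The tumour cells were 1 line and the splenocytes came from 1 spleen, both fixed and permeabilised, and neither an age nor a drug treatment was named in the labels.

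The data were 1 window list, which held positions but no height, count or p-value. Its peak names were read as both groups pooled, but the methods describe summit calling within a condition, so it is not settled which cells gave the windows. Read depth is therefore unknown, no replicate spread could be given, and 4T1 and splenocyte accessibility cannot be told apart at any window. Peak names number 118153 calls, of which 44863 (38.0%) were in the list. A gene without a window was thus a gene without a window among those kept, which says nothing about a weaker call. Of the cell markers, 6 of 6 epithelial genes had a promoter window, where the share over all protein-coding genes was 48.1%. The counts were 1 of 6 for B cell, 2 of 6 for T cell, 1 of 6 for myeloid and 0 of 6 for erythroid genes. The median protein-coding gene had 4 windows in gene and flanks. Windows in the gene and flanks of these markers ran from 10 to 16 for the epithelial, 1 to 11 for the B cell, 2 to 15 for the T cell, 1 to 13 for the myeloid and 0 to 9 for the erythroid genes. The part of this difference in the results at the 9 genes was not tested.

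KEAP1 is the adaptor through which a CUL3 ubiquitin ligase marks NRF2, the product of Nfe2l2, for degradation, and oxidants or electrophiles that modify KEAP1 release NRF2 from this control. NRF2 and its relative NRF1, from Nfe2l1, bind DNA as pairs with a small MAF protein, which has a leucine zipper but no activation domain of its own. BACH1 and BACH2 pair with the same small MAFs on overlapping sites and repress. Heme binds BACH1 and takes it off DNA, which frees genes such as Hmox1, the heme oxygenase that breaks heme down. BACH2 is known above all from B and T lymphocytes, where it holds back terminal differentiation.

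CNC-MAF pairs recognise an AP-1-like core with a GC end contributed by the MAF protein. It was searched here as TGANTCAGC on both strands, with any base allowed at N, and called the composite word. The pattern may take in words that the pairs do not bind, and binding was not tested. Windows of the 9 genes held 12 distinct sites of this word, 5 at Bach1, 4 at Bach2 and 3 at Hmox1, and none in windows of the other 6 genes. They are printed because they show where words of this pattern lay in accessible DNA. A further pattern searched for the circuit, the antioxidant response element core treated below, was in windows of all 9 genes. Each is given 5′ to 3′ on the strand of the word with 15 bases on either side, in mm9 coordinates, with the distance of the site from the outermost transcript start, and capitals mark the word.
Bach1, -33.5 kb, chr16:87665681-87665721, both strands: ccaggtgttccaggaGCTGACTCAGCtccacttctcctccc
Bach1, 0.576 kb, chr16:87699747-87699785, minus strand: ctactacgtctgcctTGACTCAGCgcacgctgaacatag
Bach1, 1.16 kb, chr16:87700333-87700371, minus strand: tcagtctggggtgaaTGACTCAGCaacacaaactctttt
Bach1, 14.2 kb, chr16:87713413-87713451, plus strand: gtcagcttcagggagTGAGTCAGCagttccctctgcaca
Bach1, 26.1 kb, chr16:87725244-87725282, minus strand: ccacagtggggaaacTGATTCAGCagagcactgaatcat
Bach2, 1.16 kb, chr4:32326919-32326957, plus strand: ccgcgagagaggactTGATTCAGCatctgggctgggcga
Bach2, 11.1 kb, chr4:32336869-32336907, minus strand: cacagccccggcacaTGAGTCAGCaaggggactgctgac
Bach2, 227.3 kb, chr4:32553032-32553070, plus strand: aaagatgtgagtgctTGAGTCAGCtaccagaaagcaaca
Bach2, 276.0 kb, chr4:32601794-32601832, plus strand: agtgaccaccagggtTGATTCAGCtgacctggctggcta
Hmox1, -9.64 kb, chr8:77607833-77607871, minus strand: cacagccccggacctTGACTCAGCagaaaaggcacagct
Hmox1, -9.61 kb, chr8:77607861-77607899, minus strand: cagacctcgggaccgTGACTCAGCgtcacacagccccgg
Hmox1, -9.58 kb, chr8:77607890-77607928, minus strand: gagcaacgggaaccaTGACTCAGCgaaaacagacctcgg

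At the free position of the word, 6 of the 12 sites had C, 3 had G, 3 had T and 0 had A. The sites with T were those of Bach1 at 26.1 kb and of Bach2 at 1.16 and 276.0 kb. Shares of the composite word given below count all of these forms. A site with C at the free position also reads as the antioxidant response element core, searched as TGACNNNGC. All 3 Hmox1 sites were of that kind. The Bach1 site at -33.5 kb read as the composite word on both strands, TGACTCAGC on the plus strand, by which it was counted here, and TGAGTCAGC on the minus strand, so the 12 sites made 13 words. None of the 12 printed stretches touched an annotated UTR.

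The Hmox1 sites stood together in 1 accessible element 9.6 kb before the gene, which is shown whole on the plus strand, chr8:77607808-77607953, with the words in capitals (GCTGAGTCA is the reverse complement of TGACTCAGC).
Hmox1 upstream element: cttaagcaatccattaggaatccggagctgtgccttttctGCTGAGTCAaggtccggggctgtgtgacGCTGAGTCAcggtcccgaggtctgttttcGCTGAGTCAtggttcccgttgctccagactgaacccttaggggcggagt
Gaps of 19 and 20 bases separated neighbouring words. A window with at least 3 composite words was uncommon, found for 18 of the 50000 windows (0.036%), which was looked up after the Hmox1 window had been seen.

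Among the 9 genes, a window lay within 1 kb of an own transcript start in 9, where the share over all protein-coding genes was 48.1%. A gene-body window more than 1 kb from every transcript start was present in 4 of 9, namely Bach2, Bach1, Nfe2l2 and Mafk, where the share over all genes was 27.4%. With the 50 kb flanks included, such a window was present for 9 of 9, where the share over all genes was 71.1%. Every gene thus had both an accessible promoter and accessible DNA elsewhere in its surroundings, and the genes differed in where the latter lay.

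Of the 111 windows, 21 (18.9%) were at an own promoter, 24 (21.6%) at the promoter of another gene, 39 (35.1%) in a gene body away from any start and 27 (24.3%) in a flank away from any start. Over the whole list 35.9% of windows were at a promoter. The median gene of the 9 had 9 windows in gene and flanks and the median protein-coding gene had 4. For windows away from starts the medians were 4 and 2, and for windows per 100 kb of gene and flanks they were 7.38 and 3.01. Calls with several summits gave 23.4% of the windows at these genes and 18.2% of all windows.

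**Figure D1:**
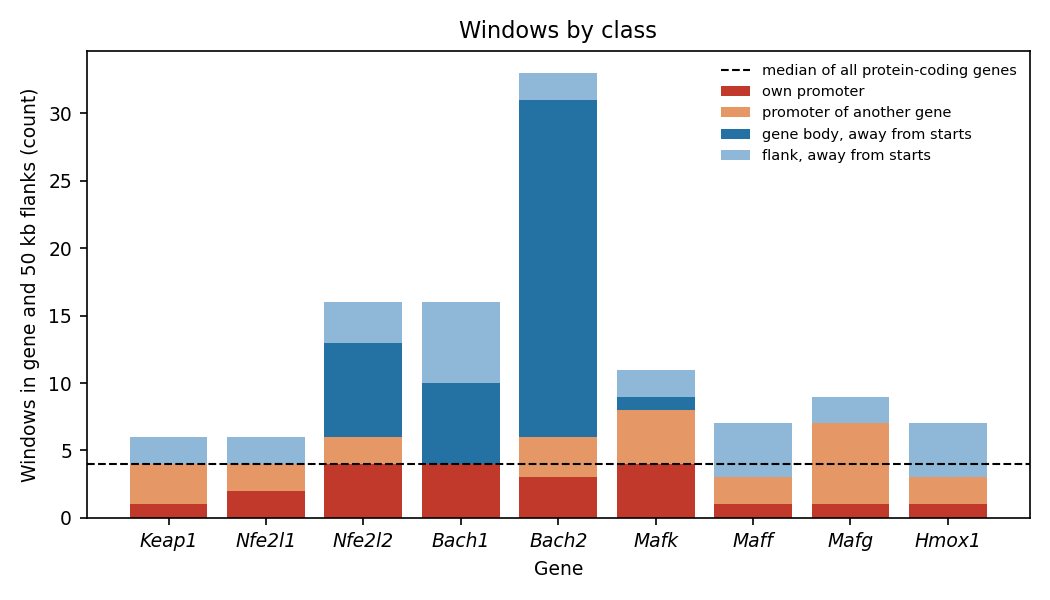
Windows in the gene and 50 kb flanks (count, y axis) for each of the 9 genes (x axis), stacked by class, with the median of all protein-coding genes (4) as a dashed line. Bach2 reached 33 windows, of which 25 lay in the gene body away from starts, and the other 8 genes had between 6 and 16.

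Keap1 and the activators came first in the circuit. Keap1 (ENSMUSG00000003308.8, chr9:21034174-21043776, minus strand) had 6 windows, of which 1 was its own promoter window, with the summit 0.435 kb inside the gene in annotated UTR and a GC content of 77.2%. The other Keap1 windows were 3 at the promoters of Pde4a and Atg4d and 2 in the flank beyond its 3′ end, at 17.7 and 18.7 kb from the start. Apart from its CpG-rich promoter, then, the 9.60 kb of Keap1 held no window.

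Nfe2l1 (ENSMUSG00000038615.10, chr11:96678728-96691282, minus strand) has 11 distinct transcript starts in the annotation, and its 2 gene-body windows both lay at such starts. The first had its summit at -0.131 kb, before the outermost start, and the second at 5.76 kb in intron 2, close to an internal start. The remaining 4 windows were 2 at the promoters of Snx11 and Cbx1 and a close pair at -31.8 and -32.2 kb. Of the numbered calls between the first and last window of the locus 46.2% were in the list, and on chromosome 11 as a whole 30.6% were, against 38.2% to 44.4% on chromosomes other than 1 and 10 to 13. The part of this lower share in the count at Nfe2l1 was not tested.

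Nfe2l2 (ENSMUSG00000015839.6, chr2:75513570-75542698, minus strand) was dense in windows, with 16 in gene and flanks and 10 in its 29.1 kb body, or 34.3 per 100 kb. A call with 4 summits covered its promoter, at 0.956, 0.644, -0.111 and -0.561 kb, and the same windows lay at the start of the lincRNA gene E030042O20Rik on the opposite strand. All 7 gene-body windows away from starts were in intron 1, between 1.78 and 21.4 kb. With a spacing of under 12.5 kb as the limit, 12 windows joined into 1 cluster of 31.2 kb that ran the length of the gene, and 142 of 24419 such clusters in the list held more windows. The composite word was in 0 of 16 Nfe2l2 windows, which at the 4.95% of all windows is near the background. The antioxidant response element core was in 7 of 16, where all windows had 21.9%. Among the 7 were the windows at 45.6 and 44.8 kb, which lay at the promoter of Hnrnpa3. No interval was computed for this gene alone.

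The repressor gene Bach1 (ENSMUSG00000025612.5, chr16:87699190-87733591, plus strand) resembled Nfe2l2 in number, with 16 windows in gene and flanks and 9 in its 34.4 kb body, or 26.2 per 100 kb. None of its windows lay at the promoter of another gene, whereas the other 8 genes had 2 to 6 such windows each. Its own promoter had 4 windows, of which 3 were summits of 1 call at -0.070, 0.418 and 1.08 kb and the other stood at -0.954 kb. Inside the gene, 5 of 6 windows away from starts were intronic, and the window at 30.7 kb had its summit in a coding exon. Upstream, 4 windows gathered between -35.8 and -32.5 kb, and the first summit of the double call there carried the site that reads on both strands.

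Composite words were present in 5 of the 16 Bach1 windows, where 4.95% of all windows, and 6.39% of those away from starts, held one. They lay in 2 promoter windows, at 0.418 and 1.08 kb in intron 1, in 2 intronic windows at 14.3 and 25.9 kb, and in the upstream window at -33.4 kb. Over the whole 134.4 kb of gene and flanks the reference held 9 composite words, of which 6 were in windows, although windows covered 5.81% of that length. Bach1 windows with an AP-1 word, TGANTCA, numbered 8 of 16, where all windows had 24.8%. Since TGANTCA is the first part of the composite word, every window with the latter counts for both.

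**Figure D2:**
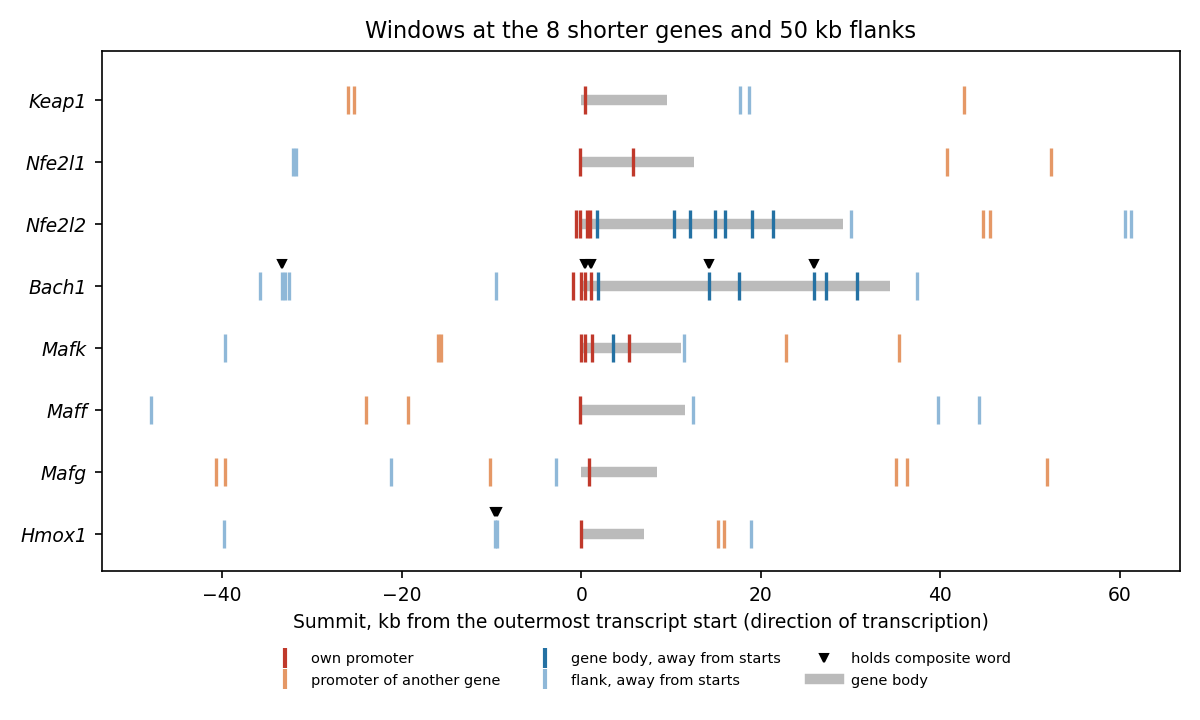
Window summits (vertical ticks) by distance from the outermost transcript start in kb (x axis) for the 8 genes other than Bach2 (rows), coloured by class, with gene bodies in grey and triangles over windows that hold a composite word. Nfe2l2 and Bach1 carried rows of windows inside the gene, whereas Keap1, Maff, Mafg and Hmox1 each had 1 gene-body window, at the promoter.

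Bach2 (ENSMUSG00000040270.9, chr4:32325779-32673083, plus strand) spans 347.3 kb and has 8 distinct transcript starts. Its 33 windows comprised 3 at its own promoters, 3 at promoters of other genes, 25 in the gene body away from starts and 2 in the flanks away from starts. Of all gene-body windows away from starts at the 9 genes, 64.1% were therefore at Bach2, and all 25 were intronic. Of the numbered calls along the locus 27 of 46 (58.7%) were in the list, against 42.0% on chromosome 4. The span counted starts and ends with a listed call, and Bach2 was chosen by window number, so this share is only a description. At the other genes the share ran from 42.9% (Mafg) to 70.6% (Nfe2l2).

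The place of Bach2 among all genes depended on whether length was taken into account. By windows in gene and flanks Bach2 was 17th of the 22350 genes, with 1 tie, and by windows in the gene body, 30, it was 11th. In that order the 3 genes next above were Asap1 and Odz4, with 32 each, and Arfip1 with 31, and next below came Zfhx3 with 29 and Nav2 and Sox5 with 28 each. Per 100 kb of gene and flanks Bach2 had 7.38 windows and fell to place 4055, behind Nfe2l2 (12.4), Bach1 (11.9), Mafk (9.90) and Mafg (8.30). Among the 954 genes of at least 200 kb, however, it was 10th by gene-body windows and 12th per 100 kb, with 8.64 where the median long gene had 0.928. The median long gene had 4 gene-body windows.

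**Figure D3:**
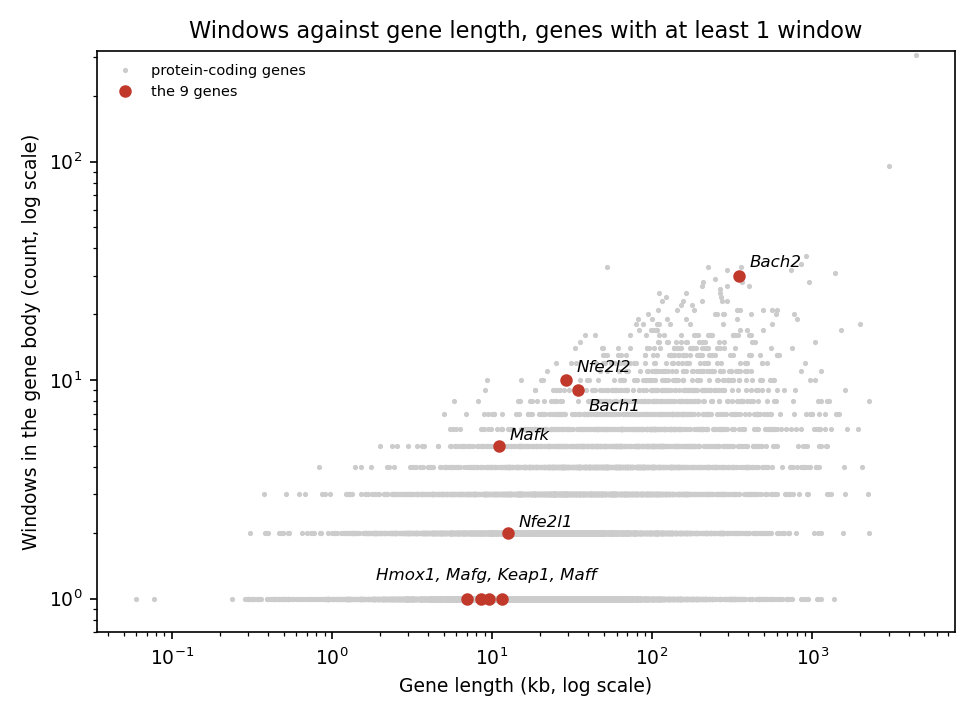
Windows in the gene body (count, y axis, log scale) against gene length (kb, x axis, log scale) for protein-coding genes with at least 1 gene-body window (grey) and the 9 genes (red). Bach2 had 30 windows over 347.3 kb, Nfe2l2, Bach1 and Mafk had 10, 9 and 5 over much shorter bodies, and the other 5 genes had 1 or 2.

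Along Bach2 the windows were denser toward the start of the gene. The first 150 kb held 20 windows, in steps of 50 kb 7, 8 and 5, and the next 4 steps held 2, 4, 2 and 2. In the annotated transcript with 8 exons (ENSMUST00000037416.6), 12 windows fell in intron 1 (15.4 per 100 kb), 10 in intron 2 (9.99), 4 in intron 3 (4.76), 2 in intron 4, 1 in intron 6 and 0 in introns 5 and 7. The first coding base lies 262.8 kb from the outermost start, so 26 of the 29 intronic windows were before the coding sequence. Windows were 6.98 kb apart at the median, and the longest gap, 56.5 kb, ran from 170.7 to 227.1 kb.

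**Figure D4:**
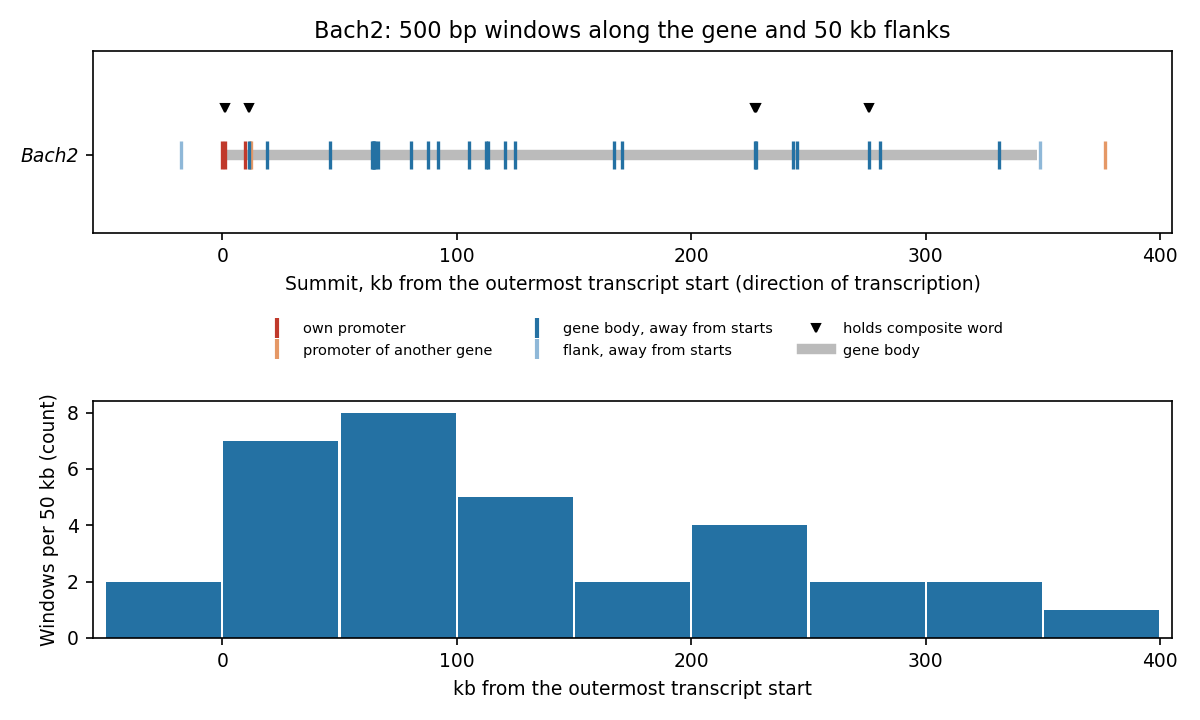
Window summits of Bach2 by distance from the outermost transcript start in kb (x axis, both panels), as ticks coloured by class over the gene body in grey (top) and as windows per 50 kb (count, bottom). Counts were highest between 50 and 100 kb, at 8, and triangles mark the windows with a composite word near the start and beyond 200 kb.

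Several starts of Bach2 had no window. The 3 own-promoter windows had summits at -0.179 and 1.32 kb, near the 3 outermost starts, and at 9.65 kb, 694 bp beyond the alternative start at 8.96 kb. Starts at 178.6, 262.7 and 336.1 kb had none within 1 kb. A call with 3 summits followed at 11.2, 11.9 and 12.3 kb, the last 2 at the start of the non-coding transcript gene Gm11932 inside intron 1. The only call with 4 summits lay deep in intron 1, at 64.0, 64.3, 64.7 and 65.1 kb, and a call with 2 summits at 227.1 and 227.5 kb. The window at 376.5 kb belonged to the promoter of Casp8ap2.

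To show the range of base composition at Bach2, its windows of highest and lowest CpG ratio (observed over expected CpG) were picked as the extremes of that measure. The central 200 bases of both are printed on the plus strand with each CpG in capitals, the first from chr4:32325500-32325699, before the outermost start, and the second from chr4:32406190-32406389, in intron 2.
Bach2 promoter window: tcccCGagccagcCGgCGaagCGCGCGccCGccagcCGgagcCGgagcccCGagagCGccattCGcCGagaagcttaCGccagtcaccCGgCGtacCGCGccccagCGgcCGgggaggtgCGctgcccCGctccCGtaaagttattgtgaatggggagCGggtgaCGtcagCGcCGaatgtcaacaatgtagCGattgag
Bach2 intron 2 window: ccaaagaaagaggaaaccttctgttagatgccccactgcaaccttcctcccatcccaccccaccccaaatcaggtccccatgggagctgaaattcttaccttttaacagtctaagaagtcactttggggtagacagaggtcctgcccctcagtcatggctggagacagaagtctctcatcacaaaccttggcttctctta
The promoter stretch held 28 CpG and the intronic stretch 0. Not every own-promoter window was rich in CpG, and the window at 9.65 kb had a GC content of 50.2% and a CpG ratio of 0.195. Over the 27 Bach2 windows away from starts the median GC content was 48.2% and the median CpG ratio 0.288, where all 32071 such windows of the list had 48.8% and 0.212. Windows of the 9 genes at promoters had 61.2% and 0.727, near the 59.2% and 0.693 of all promoter windows.

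Composite words were in 5 of the 33 Bach2 windows (15.2%, 95% Wilson interval 6.65 to 30.9%), at 1.32, 11.2, 227.1, 227.5 and 276.0 kb, of which those at 227.1 and 227.5 kb overlap and share 1 site. The reference held 21 composite words over the 447.3 kb of gene and flanks, and 4 of these were in windows, which covered 3.53% of the length. AP-1 words were in 13 of 33 windows (39.4%, interval 24.7 to 56.3%), where all windows had 24.8%. Among windows away from starts they were in 10 of 27 at Bach2 (37.0%, interval 21.5 to 55.8%) and in 31.9% of the whole list, and that interval covered the latter. The antioxidant response element core was in 5 of 33 (15.2%), where all windows had 21.9%. Intervals here and below cover counting error only, and overlapping windows of 1 call share bases.

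The small MAF genes encode the common partners, and each had its promoter in the list. Mafk (ENSMUSG00000018143.4, chr5:140267467-140278607, plus strand) led them with 11 windows, 5 of them in its 11.1 kb body, or 44.9 per 100 kb, the densest gene body of the 9. Of these 5, 4 were own-promoter windows, with summits at -0.070, 0.437 and 1.24 kb and, at an internal start, at 5.33 kb, and the fifth lay in intron 1 at 3.58 kb. A further 4 windows were at the promoters of Ints1, Tmem184a and Psmg3.

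Maff (ENSMUSG00000042622.7, chr15:79177971-79189502, plus strand) had 7 windows, of which only the promoter window at -0.124 kb touched the gene. The remaining 6 were 2 at Pla2g6 promoters, upstream, and 4 in the flanks away from starts, at -47.97, 12.5, 39.8 and 44.3 kb. The summit at -47.97 kb lay inside Pla2g6, and those at 39.8 and 44.3 kb lay inside Tmem184b. Mafg (ENSMUSG00000051510.7, chr11:120486431-120494914, minus strand) had 9 windows, and 6 of them were at promoters of its neighbours, among them Arhgdia, Pycr1 and Aspscr1. Its own promoter window, at 0.923 kb, also lay at the start of the lincRNA gene Gm17586, and it was the only one of the 9 genes to have no window once the promoter was narrowed to 500 bp around a start. Mafg, like Nfe2l1, is on chromosome 11, and 42.9% of the numbered calls at its locus were in the list, a share whose part in the count was not tested. No window of the 3 small MAF genes held a composite word, where 4.95% of all windows held one. With so few windows this absence was not tested. The reference held 6 of these words at Mafk, 4 at Maff and 9 at Mafg, and windows covered 4.79%, 3.14% and 4.15% of the loci.

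The target gene Hmox1 (ENSMUSG00000005413.6, chr8:77617490-77624495, plus strand) had 7 windows. The promoter window had its summit 0.015 kb inside the gene and held neither composite nor AP-1 words. The upstream element printed above was a call with 2 summits, at -9.63 and -9.39 kb, whose windows held 3 and 2 of the composite words. Of the 6 composite words in the 107.0 kb of gene and flanks, 3 were in this call, and 1 more lay at -3.84 kb outside any window of the list. Calls are numbered along the chromosome, and the number that falls between this call and the promoter is not in the list used here, so whether an element was called at -3.84 kb is not known. The other windows were 1 at -39.8 kb inside Tom1, 2 at the promoter of Mcm5 and 1 at 18.9 kb inside Mcm5.

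Over all 111 windows the composite word was found in 12 (10.8%, interval 6.29 to 18.0%) and in 4.95% of the 50000. Away from starts the shares were 9 of 66 (13.6%, interval 7.34 to 23.9%) and 6.39%. Without Bach2 the share was 7 of 78 (8.97%, interval 4.42 to 17.4%), and that interval covered the share of all windows. In the central 200 bases it was 5 of 111 (4.50%, interval 1.94 to 10.1%), which also covered the 2.48% of all windows. Per length, the words numbered 0.242 per kb inside the windows of the 9 loci, 0.0380 per kb outside them and 0.109 per kb in all windows of the list. The response element core numbered 0.669, 0.379 and 0.502 per kb in the same order and AP-1 words 0.614, 0.273 and 0.621, so these too were denser inside windows than outside. Of the composite words, 13 of 63 (20.6%) lay in the 3.92% of sequence that windows covered. Bach1, Bach2 and Hmox1 supplied all 13.

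The antioxidant response element core was in 33 of 111 windows (29.7%, interval 22.0 to 38.8%) and in 21.9% of all windows, and in the central 200 bases the shares were 9.91% and 10.3%. Its 36 distinct words were spread over all 9 genes, and 6 of them coincided with a composite word. AP-1 words were in 25.2% and 24.8%. For AP-1 and the words of other factor families, the counting interval at the 9 genes covered the share of all windows. These were TEAD (GGAATGT) in 8.11% and 7.78%, NFI (TTGGCA) in 22.5% and 24.4%, RUNX (TGTGGTT) in 10.8% and 11.3%, EBF (TCCCNNGGG) in 9.91% and 10.6%, IRF (GAAANNGAA) in 9.91% and 13.0%, and ETS with a PU.1 flank (GAGGAAGT) in 3.60% and 4.63%. In the RefSeq table of sequences at transcript starts (GRCm38.p6), 8 of the 9 genes, all but Hmox1, were matched by 14 promoters. The response element core was in 4 of these 14, of Maff, Mafg, Mafk and Nfe2l2, and in 12.4% of all promoters of the table. The composite word was in 0 of 14 and in 1.19% of all, so the 0 is near the background.

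**Figure D5:**
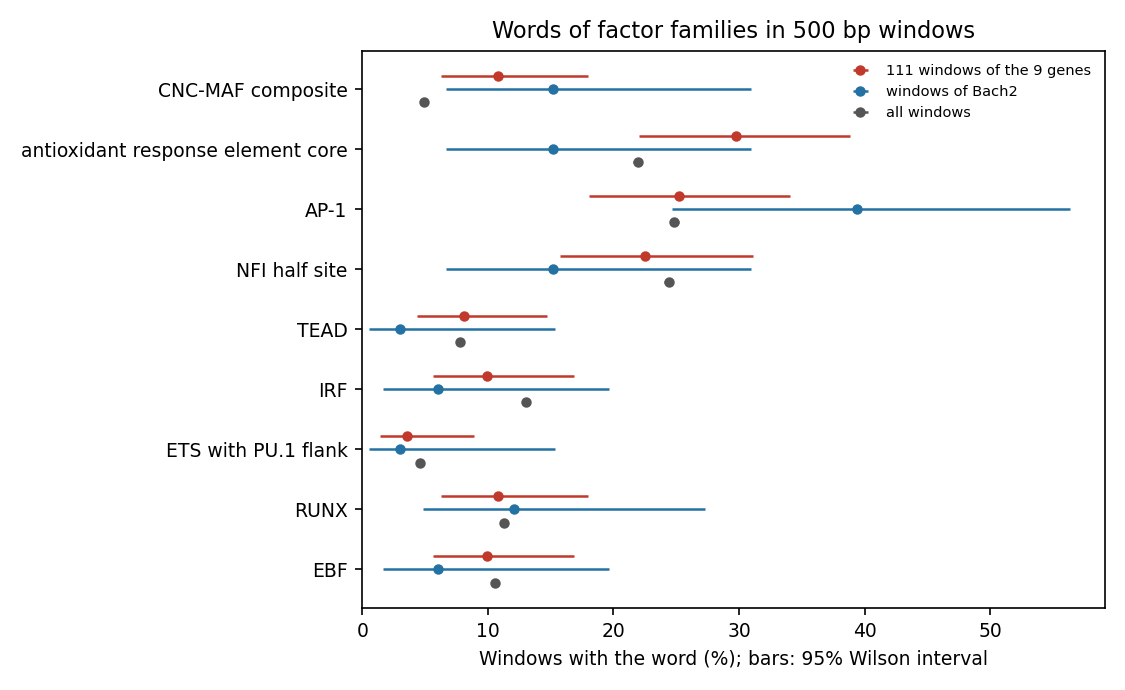
Share of windows with each word (%, x axis, with 95% Wilson intervals as bars) for the 111 windows of the 9 genes, the 33 windows of Bach2 and all 50000 windows. The composite word of the circuit stood at 10.8%, 15.2% and 4.95%, and for the 9 genes the intervals of the other words except the antioxidant response element core covered the share of all windows.

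Of the surrounding pathway, 5 lists with 52 genes were counted in the same way, against the 48.1% of all genes with a promoter window. Genes that control NRF2 and NRF1 had a promoter window in 10 of 10, with most windows at Sqstm1 (15), whose product binds KEAP1, and at Fbxw11 and Vcp (10 each). Relatives of the activators and MAF factors had one in 5 of 6, all but Nrl, with most windows at Nfe2 (6), and Maf had 5. Median windows in gene and flanks were 6.5 and 4.5, below the 9 of the circuit genes.

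Antioxidant genes had a promoter window in 12 of 16, with most windows at Osgin1 (19), Gsr and Prdx1 (11 each). The 4 without were Nqo1, Gsr, Gpx2 and Gsta4, named after their values were seen, and Gsr, the glutathione reductase gene, thus had 11 windows and none at its start. Heme and iron genes had one in 8 of 9 and the highest median of the 5 lists, 13 windows, with Abcb6 and Slc48a1 at 16 each and Alas1, the first enzyme of heme synthesis, at 15. Slc48a1, a heme transporter gene, was the 1 without a promoter window. Genes that work with BACH2 in lymphocytes had one in 7 of 11, among them Prdm1, a known BACH2 target, with 10 windows in gene and flanks, while Pax5 had 11 windows. Pax5, Irf4, Batf and Foxp3 had no promoter window, named after their values were seen. Pax5 thus had most of its windows, 10 of 11, away from starts, and none at its own promoter. Most windows were away from starts at Bach2 too, but also at genes of other lists, such as Osgin1 (15 of 19) and Slc48a1 (13 of 16).

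Nearest outside the 50 kb limit were windows at 51.7 kb beyond the 3′ end of Mafg and 53.4 kb before Mafk, and the outermost windows included were at 48.2 kb before Maff and 43.7 kb beyond the 3′ end of Mafg. No window of 1 gene was also a window of another of the 9.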

How the data were processed

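Pi-ATAC libraries of 192 sorted single cells were analysed through 1 deposited list of 50000 windows. According to labels and methods, the authors removed adapters, aligned read pairs to mm9 with Bowtie2 2.1.0, discarded low-quality, mitochondrial and duplicate reads (Picard 1.79), called summits on aggregated cells with MACS2 (version not given in the sources used here), centred 500 bp windows on summits and kept those of lowest q-value. Per the file, the deposited values are positions with a peak name. From the wording of these names the list was taken to pool both groups, whereas the methods describe summits called on the cells of a single condition, so which cells gave the list is not settled. The members and lists were chosen with earlier results of these data known.

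Windows were assigned to GENCODE models of the same build by overlap of at least 1 bp (Python 3.11.15, numpy 2.4.6). A promoter window reached within 1 kb of any annotated start of a protein-coding gene or long non-coding RNA, and other windows were called away from starts. All 9 genes are named, and of other lists the 3 genes with most windows and, where 3 or fewer, those without a promoter window, except where a gene is not reported here. The 9 words were searched on both strands of the reference. With 1 list no test was made. Counting was checked on simulated windows with known answers.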

Additional observations from a re-analysis of the deposited data

How the results depend on the processing

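No paired analysis was possible because the data are 1 window list with no values per sample, although the titles share replicate numbers. For the same reason no sample could be left out. The sum of windows over the 9 genes, 111, was 60 in gene bodies only, 76 with flanks of 10 kb, 175 with flanks of 100 kb, 99 with overlapping windows merged, 26 from calls with several summits only, and 56 when a window counted only for the gene of the nearest start. Bach2 had the most windows of the 9 under each of these, but its lead varied. Counted by the nearest start only, Bach2 fell from 33 to 18, while Bach1 kept 16. All 9 genes kept a promoter window within 2.5 kb, around the outermost start and by summit within 1 kb, and 8 did within 500 bp. The place of Bach2 moved from 17 to 11 by gene body and to 4055 per 100 kb, which follows from dividing by length. The composite word share of 10.8% was 4.50% in the central 200 bases, where a shorter stretch was searched. With only the first summit of each call, an alternative chosen after seeing the data, it was 8.42% against 4.92% of all windows. No interval was computed for that share, and the difference was not tested.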
